A study of Homo sapiens with 26 samples.

Results

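The 9 genes GP6, GP1BA, GP9, ITGA2B, ITGB3, SELP, PF4, MMRN1 and VWF, genes of megakaryocytes and platelets and 9 of the 57773 genes in the deposited count table, were followed across human TF-1 erythroleukemia cells that carried or lacked TET2. They were chosen by name, as platelet receptor and granule genes whose Ensembl identifiers are in the table. No measured value entered the rule, but earlier results of these data were known when they were chosen. TF-1 cells need an added cytokine such as GM-CSF to grow, and the line carries features of early erythroid and megakaryocytic cells. The study used 2 clones labelled TET2 -/- (F4 and A12, here KO) and 2 wild-type clones (A7 and C4, here WT). Cells received 200 nM 5-azacytidine (Aza) or its vehicle DMSO once a day for 3 days. RNA came from untreated cells and from cells collected 72 h or 264 h after the initial dose. Batch 1 held both genotypes under every condition, and batch 2 added 6 DMSO-arm libraries of the KO clones at the start, 72 h and 264 h. Of 26 libraries, 25 passed the submitters' quality control, 15 of KO and 10 of WT, in 11 groups. The library that failed was clone F4 in DMSO at 72 h in batch 1, so at 72 h the DMSO reference for F4 came from batch 2 alone.

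Platelets are shed by megakaryocytes and carry on their surface the receptors with which they meet an injured vessel wall. GP6 (glycoprotein VI) is the platelet's signalling receptor for collagen, GP1BA and GP9 are subunits of the GPIb-IX-V complex that binds von Willebrand factor, and ITGA2B and ITGB3 pair as integrin αIIbβ3, the fibrinogen receptor that links platelets to each other. SELP (P-selectin) lies in the α-granule membrane and reaches the surface on activation, while PF4 (platelet factor 4, a chemokine), MMRN1 (multimerin 1, which binds factor V) and VWF (von Willebrand factor) are carried inside the α-granules. TET2 oxidises 5-methylcytosine, the first step by which DNA methylation is actively removed, and 5-azacytidine lowers DNA methylation by trapping DNA methyltransferases.

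The passing libraries held between 24992192 and 40187322 counts assigned to genes, with a median of 27477937. A floor of 3 counts, the detection limit, was worth 0.0746 to 0.120 CPM, the usual depth-scaled count, in these libraries, a limit that covers counting error only. Replicates are clones of 1 cell line. In KO against WT, p-values measure the spread between those clones and their cultures. In the other comparisons, the model takes out the mean difference between clones and between batches. Their p-values measure the spread that is left, pooled over all groups. TET2 itself had a mean of 31.3 CPM and lay 0.14 (F4) and 0.50 (A12) above WT on the log2 scale. TET2 lies on the long arm of chromosome 4, where expressed genes from 100 to 110 Mb had medians of 0.02 (F4) and 0.53 (A12) above WT. The part of that shift in the TET2 values was not tested. A count summed over a whole gene does not show a small edit, so it does not check the KO label. Before any result, a feature of the WT pre-treatment libraries has to be stated: their deviations from the group mean ran against those of the same-named WT clones in every later group (correlation over 3000 genes between -0.52 and -0.48), while the other same-clone pairs compared, all in batch 1, gave 0.45 to 0.61. The clone labels of these 2 libraries are therefore used with that reservation. The WT change from pre-treatment to DMSO at 264 h and the clone means, which rest on them directly, are marked. Both libraries also enter the model behind every comparison except KO against WT, so its clone term and p-values rest on them in part. Where leaving them out changed the call of a followed gene in that model, the refit is given.

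TF-1 cells expressed ITGA2B, GP6, GP1BA, ITGB3 and the granule gene MMRN1, but little SELP and GP9 and almost no PF4 and VWF. Over the 25 libraries, ITGA2B was the highest of the 9, with a median of 529 CPM (range 459.8 to 661). GP6 followed with 50.7 CPM (21.3 to 83.8), GP1BA with 49.1 CPM (30.6 to 79.3), MMRN1 with 20.0 CPM (5.11 to 43.4) and ITGB3 with 15.7 CPM (8.22 to 40.6). The ranges of GP6 and GP1BA over all libraries overlapped, as did those of MMRN1 and ITGB3, and the order within a pair changed between groups. In KO in Aza at 72 h GP6 (76.1 to 83.8 CPM) lay above GP1BA (39.8 to 51.2). In WT before treatment it lay below (30.3 to 30.9 against 44.6 to 53.6). ITGB3 (26.2 to 27.1) lay above MMRN1 (10.7 to 10.9) in WT in Aza at 72 h. In KO in Aza at 264 h it lay below (14.0 to 15.7 against 24.3 to 38.4). SELP was low at 1.45 CPM (0.728 to 5.95), and GP9 had 2 to 24 counts a library (median 0.319 CPM).

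PF4 lay at or under the floor in all libraries but 1, and VWF lay close to it. PF4 had 36 counts in 5 of the 25 libraries and VWF had 53 counts in 20 of them, with at most 7 in one. These 2 genes did not pass the filter on low counts, so 7 of the 9 genes entered the tests, and GP9 was left out of 1 of them, KO against WT in DMSO at 264 h. As defining markers, RNA of the fibrinogen and collagen receptors was thus present in these cells. Of the α-granule contents, RNA of PF4 and VWF was nearly absent, while that of MMRN1 was present. In bulk RNA, fewer cells of a type and less RNA per cell cannot be told apart.

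Levels were also compared per kilobase of exon that no other annotated gene shares. On that scale the medians were 95.3 for ITGA2B, 20.8 for GP6, 19.6 for GP1BA, 7.38 for ITGB3, 3.64 for MMRN1, 0.416 for SELP and 0.358 for GP9, all in CPM per kilobase. ITGB3 now stood above MMRN1, and the other genes kept their places. Per kilobase of full exon length, ITGB3 (3.19) stayed below MMRN1 (3.64) and GP6 (18.7) was just below GP1BA (19.6), so both of these orders depend on how shared bases are counted. Both subunits of one integrin were thus measured at unequal RNA levels, with ITGA2B far above ITGB3. Of the 4913 exon bases of ITGB3, 2785 (56.69%) are shared with other annotated genes on the same strand, and featureCounts by default leaves reads that fall on 2 genes uncounted. The gene with which ITGB3 shares most bases had 0 counts in every library, and the effect of the overlap on the level of ITGB3 was not tested. GP6 shares 270 of 2703 exon bases, and the other 7 genes share none with a gene on the same strand. Strand was not set in the recorded counting command, so reads of GP6-AS1 over 44 bases of GP6 exons cannot be told from those of GP6.

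**Figure D1:**
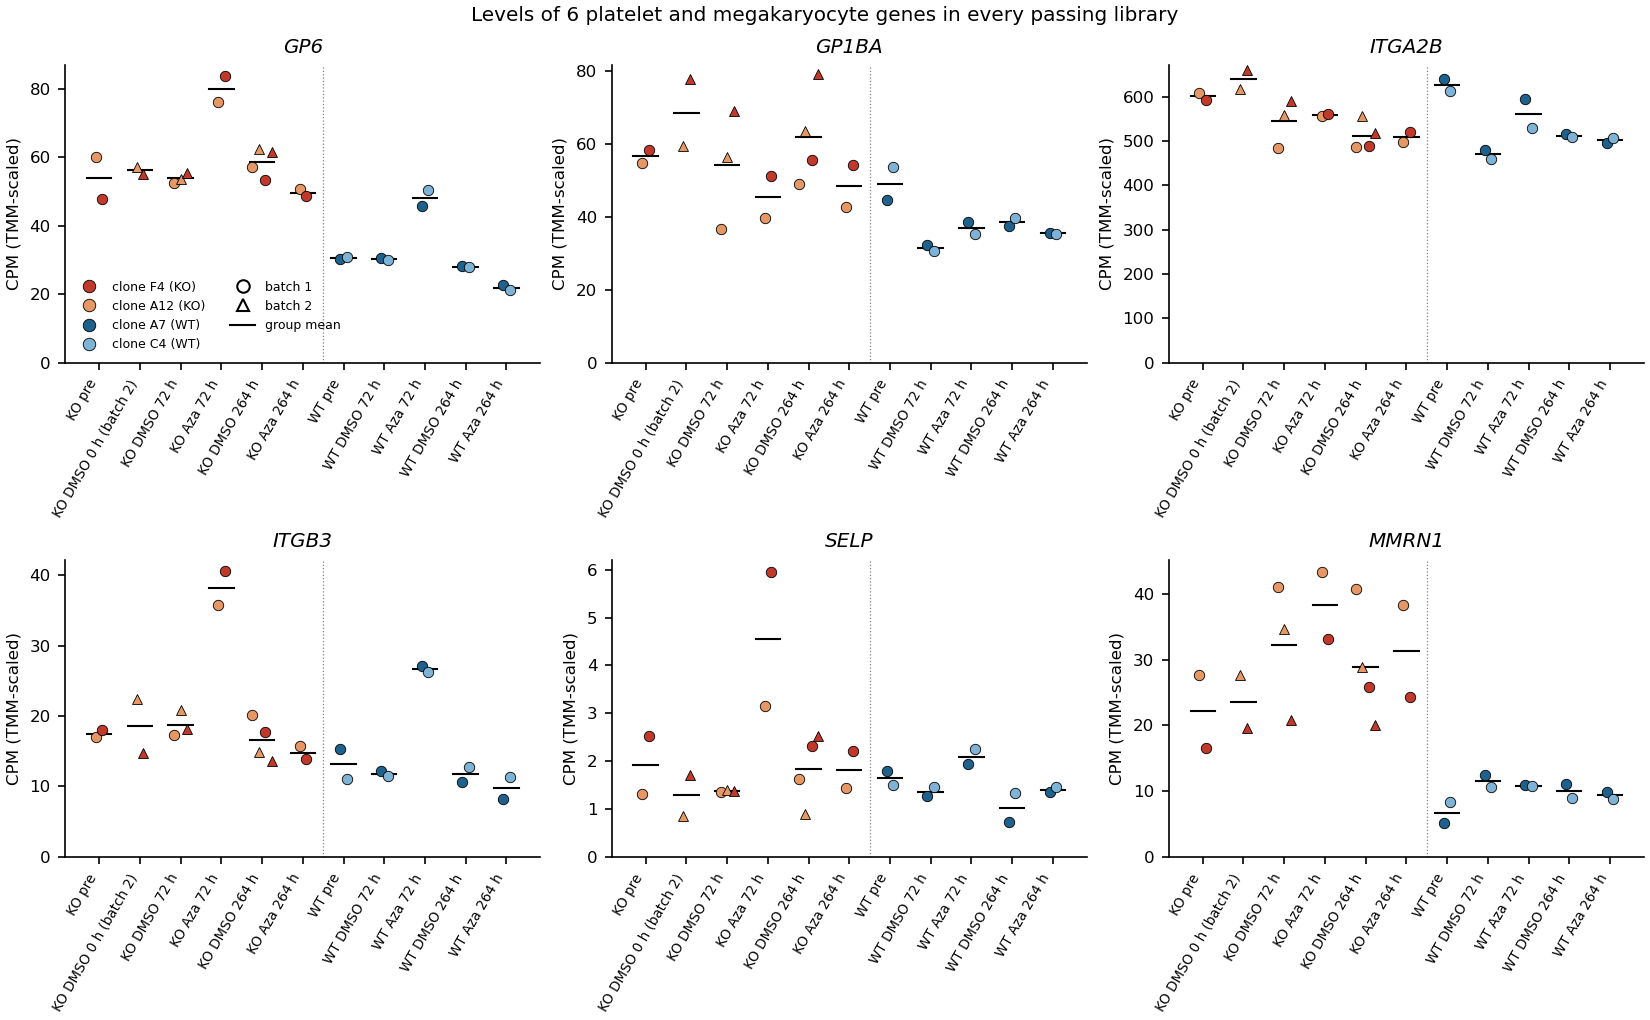
Level of 6 of the genes in CPM (vertical axes, from 0) in each of the 11 groups (horizontal axis). Points are single libraries, coloured by clone and shaped by batch, and bars are group means; within each genotype, GP6 and ITGB3 are highest in the Aza group at 72 h, and MMRN1 is higher in every KO library than in any WT library.

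The genes lie on 6 chromosomes. In hg19, GP6 (ENSG00000088053.7) is on the minus strand at chr19:55525073-55549632, GP1BA (ENSG00000185245.6) on the plus strand at chr17:4835592-4838325 and GP9 (ENSG00000169704.4) on the plus strand at chr3:128779610-128781249. ITGA2B (ENSG00000005961.13, minus strand, chr17:42449548-42466873) and ITGB3 (ENSG00000259207.3, plus strand, chr17:45331212-45421658) are both on chromosome 17. SELP (ENSG00000174175.12) is on the minus strand at chr1:169558087-169599431, and VWF (ENSG00000110799.9) on the minus strand at chr12:6058040-6233936. PF4 (ENSG00000163737.3, minus strand, chr4:74846794-74847841) and MMRN1 (ENSG00000138722.5, plus strand, chr4:90800683-90875780) share the long arm of chromosome 4 with TET2.

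At 72 h GP6 was called higher after Aza in both genotypes, SELP in KO only and ITGA2B, the most highly expressed gene, in WT only. Because Aza acts on CpG methylation, the 250 bases upstream of their annotated starts are shown. They were copied from RefSeq on GRCh38.p14, a later build than the one used for counting, are written 5′ to 3′ on the gene's strand, and carry each CpG dinucleotide in capitals. GP6 is chr19:55038265-55038514 (minus strand), SELP is chr1:169630125-169630374 (minus strand) and ITGA2B is chr17:44389650-44389899 (minus strand).
GP6: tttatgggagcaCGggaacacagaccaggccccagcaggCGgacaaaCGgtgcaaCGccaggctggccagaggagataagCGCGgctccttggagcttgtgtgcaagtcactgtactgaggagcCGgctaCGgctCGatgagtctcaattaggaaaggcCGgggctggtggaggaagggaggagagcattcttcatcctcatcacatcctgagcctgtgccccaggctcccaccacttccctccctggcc
SELP: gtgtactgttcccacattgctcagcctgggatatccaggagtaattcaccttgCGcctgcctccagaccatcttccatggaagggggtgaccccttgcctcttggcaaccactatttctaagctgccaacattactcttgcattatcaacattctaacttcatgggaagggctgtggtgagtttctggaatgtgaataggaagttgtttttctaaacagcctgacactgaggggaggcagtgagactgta
ITGA2B: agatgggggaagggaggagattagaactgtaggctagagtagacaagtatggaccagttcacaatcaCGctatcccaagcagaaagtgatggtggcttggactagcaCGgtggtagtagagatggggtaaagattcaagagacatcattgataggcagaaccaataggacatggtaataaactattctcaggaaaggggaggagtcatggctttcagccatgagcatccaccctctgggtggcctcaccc

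GP6 held 10 CpG dinucleotides in this window, ITGA2B 2 and SELP 1, against a median of 11 (quartiles 3 and 23) over 35116 promoters of the same length. Of the 9, 5 had an entry in the promoter table; GP9 held 8 CpG, and the 2 annotated starts of MMRN1 held 2 and 3. SELP and ITGA2B were thus below the lower quartile of promoters by CpG number and GP6 was near the middle. The letters AGATAA for a GATA motif, or its other forms TGATAA and likewise AGATAG and likewise TGATAG, were found on either strand in GP6, SELP, ITGA2B and 1 of the MMRN1 windows, an ETS motif (written AGGAAG, or else in the form CGGAAG) in GP6, GP9, SELP and the same MMRN1 window, and a RUNX motif (written TGTGGT, or else in the form TGCGGT) in GP9 and SELP. Of all promoters, 22.33% held the GATA, 40.75% the ETS and 16.31% the RUNX letters, and 1.367% held all of them, as SELP did. These letters are a description of the window, and methylation of these CpG was not analysed here.

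At 72 h, Aza was compared with DMSO within each genotype, to see how the genes responded to the drug with and without TET2. In KO cells 3 of 7 tested genes rose (GP6, ITGB3 and SELP) and none fell, and in WT cells 5 of 7 rose (GP6, ITGB3, ITGA2B, GP1BA and GP9) and none fell. Over all genes tested, 20.1% were called in KO and 18.3% in WT at an adjusted p under 0.05 in edgeR's quasi-likelihood test, of which 11.6% and 9.26% were higher. The median log2 change over the 7 genes was 0.68 in KO and 0.64 in WT, against 0.01 and 0.00 over all genes tested. GP6 and ITGB3 were the genes called in both genotypes.

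The collagen receptor gene GP6 had 83.8 (F4) and 76.1 (A12) CPM in KO cells after Aza, against 52.4 and 53.8 (A12, batches 1 and 2) and 55.3 (F4) in DMSO. In WT cells it had 45.9 (A7) and 50.5 (C4) CPM after Aza, against 30.7 and 29.9 in DMSO. No Aza library overlapped a DMSO library of its genotype. The log2 change was 0.68 ± 0.086 (SE) in KO (edgeR adjusted p = 2.5e-06) and 0.69 ± 0.084 in WT (edgeR adjusted p = 1.87e-06), and GP6 was called under every alternative in both.

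ITGB3, the β subunit of the fibrinogen receptor, had 40.6 (F4) and 35.8 (A12) CPM in KO cells after Aza. Its DMSO libraries had 17.4, 20.8 (both A12) and 18.2 (F4) CPM, so the groups were well apart. In WT cells it had 27.1 and 26.2 CPM after Aza against 12.2 and 11.5 in DMSO. The log2 change was 0.94 ± 0.23 in KO (edgeR adjusted p = 0.0102) and 1.19 ± 0.22 in WT (edgeR adjusted p = 0.00184). The KO call was lost without the A12 batch 1 DMSO library (log2 0.57, edgeR adjusted p = 0.16) or the F4 Aza library (log2 0.77, edgeR adjusted p = 0.0735), and the KO change was 1.52 when the failed F4 library, with 4.55 CPM, was added.

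ITGA2B, the α subunit of the same integrin, moved less. In WT cells it had 595 and 529 CPM after Aza against 480.4 and 459.8 in DMSO (log2 0.27 ± 0.059, edgeR adjusted p = 0.00151), a call that was lost without the A7 Aza library (log2 0.19, edgeR adjusted p = 0.0979). In KO cells it had 562 and 557 CPM after Aza, within the range of its DMSO libraries at 484, 558 and 591 CPM (log2 0.17 ± 0.062, edgeR adjusted p = 0.0519); it passed in batch 1 alone (log2 0.21, edgeR adjusted p = 0.0464), without the F4 batch 2 DMSO library (0.19, edgeR adjusted p = 0.04) and without the WT pre-treatment libraries. The 2 partner subunits thus differed in the size of their change in both genotypes, a difference between genes that was not itself tested.

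SELP, the granule membrane selectin, had 5.95 (F4) and 3.16 (A12) CPM in KO cells after Aza against 1.37 and 1.40 (A12) and 1.39 (F4) in DMSO. Both Aza libraries were above all DMSO libraries, F4 furthest. The log2 change of 1.34 ± 0.29 was called (edgeR adjusted p = 0.00168) and was called under every alternative run. In WT cells SELP had 1.94 and 2.26 CPM after Aza against 1.27 and 1.45 in DMSO (log2 0.64 ± 0.29, edgeR adjusted p = 0.14).

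The GPIb-IX genes were at or near the threshold. In WT cells GP1BA, the von Willebrand factor-binding chain, had 38.5 and 35.3 CPM after Aza against 32.3 and 30.6 in DMSO (log2 0.25 ± 0.087, edgeR adjusted p = 0.0485), a call that remained under 3 of 10 alternatives. In KO cells it had 51.2 and 39.8 CPM after Aza against 36.7, 56.5 and 69.2 in DMSO, with no order between the groups (log2 0.09, edgeR adjusted p = 0.545). The DMSO values of GP1BA were higher in batch 2 than in batch 1 for the same clone, at 56.5 against 36.7 for A12 at 72 h and at 79.3 against 55.5 for F4 at 264 h.

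GP9, a small subunit of the same complex, had 0.657 and 0.896 CPM in WT cells after Aza against 0.187 and 0.212 in DMSO. Both Aza libraries lay above both DMSO libraries, all above the floor but by few counts. The log2 change was 1.95 ± 0.67 (edgeR adjusted p = 0.0436), and leaving out any 1 of the 4 libraries ended the call (edgeR adjusted p from 0.0937 to 0.262). In KO cells GP9 had 0.155 and 0.498 CPM after Aza against 0.0966 to 0.280 in DMSO (log2 1.44 ± 0.82, edgeR adjusted p = 0.241).

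MMRN1 was the tested gene that did not pass in either genotype with a level well above the floor. It had 33.2 (F4) and 43.4 (A12) CPM in KO cells after Aza against 20.9 (F4), 41.1 and 34.7 (A12) in DMSO, and 10.9 and 10.8 CPM in WT cells after Aza against 12.5 and 10.6. In both treatments A12 was above F4, and the KO groups overlapped. The log2 change was 0.14 ± 0.14 in KO (edgeR adjusted p = 0.541) and -0.07 ± 0.15 in WT (edgeR adjusted p = 0.808).

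**Figure D2:**
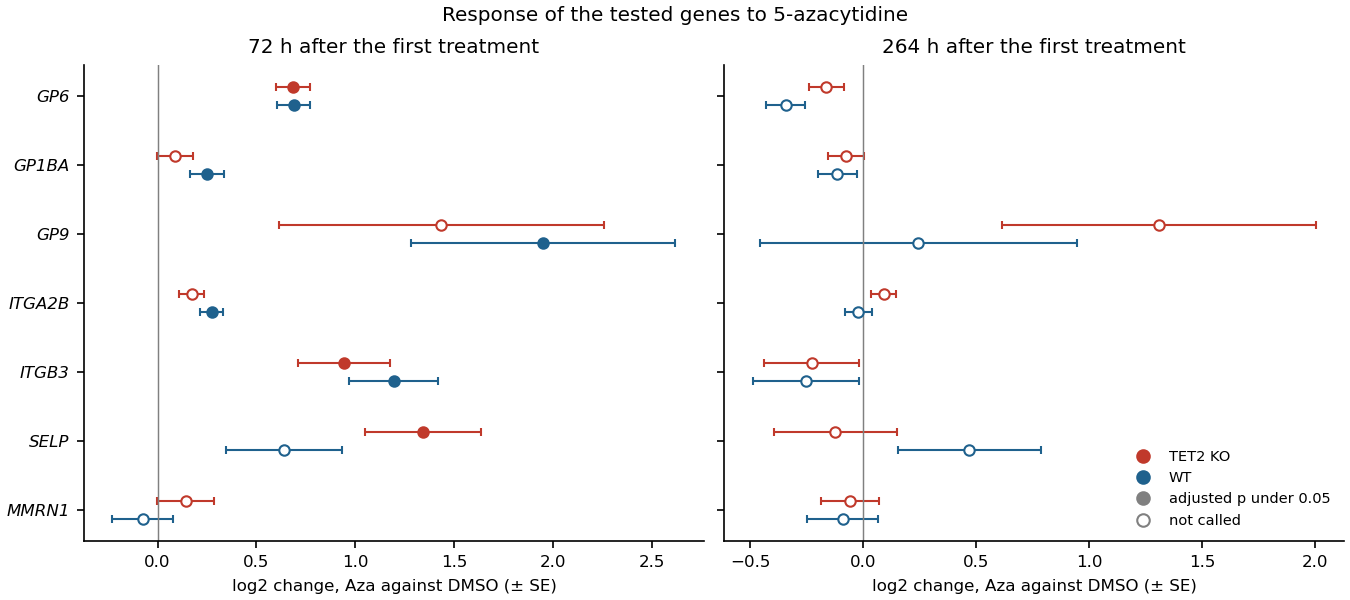
Log2 change of the 7 tested genes, Aza against DMSO, in KO and WT at 72 h and 264 h (points, with ± 1 SE as lines). Filled points have an edgeR adjusted p under 0.05, which holds for 3 genes in KO and 5 in WT at 72 h and for no gene at 264 h.

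The drug response of these genes was then compared between genotypes. The difference of the Aza effect at 72 h, KO minus WT, was -0.00 ± 0.12 (SE) for GP6, -0.25 ± 0.32 for ITGB3, -0.10 ± 0.085 for ITGA2B, -0.16 ± 0.13 for GP1BA, 0.70 ± 0.41 for SELP, 0.22 ± 0.21 for MMRN1 and -0.51 ± 1.13 for GP9. No member and none of the 18391 genes tested passed in edgeR (0% called), where 631 genes and 0 members had an unadjusted p under 0.05, and DESeq2 called 0 members. SELP passed in KO and GP1BA, GP9 and ITGA2B passed in WT, but these data do not show that their responses differed between the genotypes. The SE of these differences leaves room for sizeable ones, above all for GP9, then SELP and ITGB3.

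By 264 h GP6, ITGB3 and, in KO cells, SELP were back near their DMSO levels or below them. GP6 had 48.6 and 50.7 CPM in KO cells after Aza against 53.2 to 62.5 in 4 DMSO libraries, and 22.5 and 21.3 CPM in WT cells against 28.1 and 27.9. All Aza libraries were now below all DMSO libraries of their genotype, the reverse of 72 h. The log2 change was -0.16 in KO (edgeR adjusted p = 0.767) and -0.34 ± 0.088 in WT (edgeR adjusted p = 0.0844). The WT value passed when the model held only the groups compared (log2 -0.34, edgeR adjusted p = 0.0027), when no filter was set (-0.35, edgeR adjusted p = 0.0312) and without the WT pre-treatment libraries (-0.34, edgeR adjusted p = 0.0287).

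For ITGB3 and SELP the groups were closer than at 72 h. ITGB3 had 14.0 and 15.7 CPM in KO cells after Aza at 264 h against 13.6 to 20.2 in DMSO, and 8.22 and 11.3 in WT cells against 10.7 and 12.7. SELP had 2.20 and 1.45 CPM in KO cells against 0.902 to 2.53, and 1.35 and 1.45 in WT cells against 0.728 and 1.33. The ranges overlapped except for SELP in WT cells (log2 0.47). GP9 had 0.404 and 0.457 CPM in KO cells after Aza against 0.113 to 0.535 in DMSO (log2 1.31 ± 0.69, edgeR adjusted p = 0.797), a change about as large as at 72 h, and its log2 change in WT was 0.24 ± 0.70. No member was called at 264 h in edgeR in either genotype, where 0.0979% (KO) and 0.5% (WT) of all genes were; GP6 alone had an unadjusted p under 0.05 in each, and DESeq2 called 0. The Aza effect at 264 h did not differ between genotypes for any gene in edgeR (0%), where 571 genes and 0 members had an unadjusted p under 0.05, and DESeq2 called 0 members.

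The fall from 72 h to 264 h within Aza-treated cells uses the same 72 h libraries as the rise. In KO cells, GP6 (log2 -0.71, edgeR adjusted p = 5.85e-07), ITGB3 (-1.39, edgeR adjusted p = 4.05e-04) and SELP (-1.32, edgeR adjusted p = 8.61e-04) fell, where 20.5% of all genes were called and 10.7% were lower. The SELP call was lost without the clone term (edgeR adjusted p = 0.0586). MMRN1 (-0.34, edgeR adjusted p = 0.0901) and ITGA2B (-0.16, edgeR adjusted p = 0.0607) were not called in KO. MMRN1 passed in edgeR with only the groups compared (adjusted p = 0.00146), without the WT pre-treatment libraries (0.0055) and without a filter (0.0484). ITGA2B passed in batch 1 alone (edgeR adjusted p = 0.0439). In WT cells, GP6 (log2 -1.15, edgeR adjusted p = 6.44e-10), ITGB3 (-1.47, edgeR adjusted p = 3.81e-04) and ITGA2B (-0.18, edgeR adjusted p = 0.0347) fell, where 20.4% were called and 10.1% were lower. The ITGA2B call was lost without the A7 library of 72 h (log2 -0.10, edgeR adjusted p = 0.42) or of 264 h (-0.11, edgeR adjusted p = 0.413).

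KO and WT cells were next compared within each condition, on batch 1 alone, with 2 clones a genotype. GP6 and MMRN1 were higher in both KO clones than in both WT clones under all 4 conditions tested, as were ITGB3 and GP1BA, an order that 5.51% of all genes showed. With 2 clones against 2, the smallest p an exact two-sided permutation test can give is 0.3333, so the calls below rest on edgeR's pooled estimate of the spread. GP6 passed in DMSO and in Aza at 264 h, and MMRN1 passed in Aza at 72 h. ITGA2B differed by -0.08 to 0.01 on the log2 scale in the 4 comparisons.

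Before treatment GP6 had 47.8 (F4) and 59.9 (A12) CPM in KO and 30.3 (A7) and 30.9 (C4) in WT. In DMSO at 264 h the same clones had 53.2 and 57.3 against 28.1 and 27.9 CPM, and the gap held after Aza. The log2 difference was 0.83 ± 0.13 before treatment (edgeR adjusted p = 0.0694), 0.97 ± 0.088 in DMSO at 264 h (edgeR adjusted p = 0.0457), 0.72 in Aza at 72 h (edgeR adjusted p = 0.0567) and 1.17 ± 0.093 in Aza at 264 h (edgeR adjusted p = 0.0414). Of all genes, 0.0543%, 0.208%, 0.19% and 0.0488% were called in these comparisons, so few genes passed in any of them. Either WT library left out ended the calls, with an adjusted p of 0.152 and 0.245 in DMSO and of 0.0676 and 0.132 in Aza at 264 h in edgeR. Without F4, where the lone A12 library is assumed to vary like the WT pair, the difference of GP6 passed before treatment (log2 0.98, edgeR adjusted p = 0.00363) and in Aza at 72 h (log2 0.64, edgeR adjusted p = 0.0186). In DMSO at 72 h, where KO had 1 passing batch 1 library and no test was made, GP6 had 52.4 CPM in A12 and 30.7 and 29.9 in WT.

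MMRN1 was the gene that separated the genotypes in every library. All 15 KO libraries, at 16.6 to 43.4 CPM, were above all 10 WT libraries, at 5.11 to 12.5 CPM, an order that 0.99% of all genes showed. In batch 1 it had 16.6 (F4) and 27.6 (A12) CPM before treatment against 5.11 and 8.33 in WT, and 25.9 and 40.7 in DMSO at 264 h against 11.1 and 8.95. The log2 difference was 1.73 in both (edgeR adjusted p = 0.225 before treatment and 0.102 in DMSO at 264 h). In Aza it was 1.81 ± 0.15 at 72 h (edgeR adjusted p = 0.0203) and 1.73 at 264 h (edgeR adjusted p = 0.0903). Leaving out either WT library ended the 72 h call (edgeR adjusted p = 0.0856 and 0.118), while at 264 h leaving out either KO clone made the difference pass under the same assumption for the lone KO library, at 1.36 in DMSO and 1.37 in Aza without A12 (edgeR adjusted p = 0.0312 and 0.019) and at 2.02 and 2.03 without F4 (edgeR adjusted p = 0.0046 and 0.00239).

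None of the other genes was called. ITGB3 was 0.50 to 0.69 higher in KO on the log2 scale after treatment (edgeR adjusted p from 0.139 to 0.328), and GP1BA was 0.43 higher in DMSO at 264 h (edgeR adjusted p = 0.161). SELP was 1.10 higher in Aza at 72 h (edgeR adjusted p = 0.359). GP9 was below WT in both KO clones in 3 of the 4 conditions. In Aza at 264 h it was above WT in both (0.404 and 0.457 CPM against 0.347 and 0.344, log2 0.30 ± 0.42). Of all genes, 4.28% were below WT in both KO clones in all 4 conditions, and the share for 3 of 4 was not counted. Before treatment GP9 had 0.137 (F4) and 0.367 (A12) CPM in KO against 0.770 and 0.800 in WT, on 4 to 24 counts (log2 -1.62 ± 0.54, edgeR adjusted p = 0.44). In Aza at 72 h its difference was -1.23 ± 0.57 (edgeR adjusted p = 0.564).

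Averaged over the 4 conditions of batch 1 that every clone has, the clones can be set side by side; the A7 and C4 means hold the pre-treatment libraries whose clone labels are in doubt. GP6 had 58.3 CPM in F4 and 61.0 in A12, against 31.7 in A7 and 32.7 in C4. ITGB3 had 22.6 and 22.2 against 15.4 and 15.3, and GP1BA had 54.9 and 46.6 against 39.1 and 41.0. For GP6 and ITGB3 the 2 clones of a genotype lay close together.

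MMRN1, SELP and GP9 differed most between the 2 KO clones, GP9 on few counts. MMRN1 had 25.0 CPM in F4 and 37.5 in A12, against 9.25 and 9.21 in WT, and A12 was 0.61 above F4 on the log2 scale in batch 1 and 0.58 above it in batch 2. SELP went the other way, with 3.25 CPM in F4 and 1.89 in A12 against 1.45 and 1.63. GP9 had 0.210 CPM in F4 and 0.368 in A12 against 0.535 and 0.565, with A12 0.655 above F4 on the log2 scale.

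**Figure D3:**
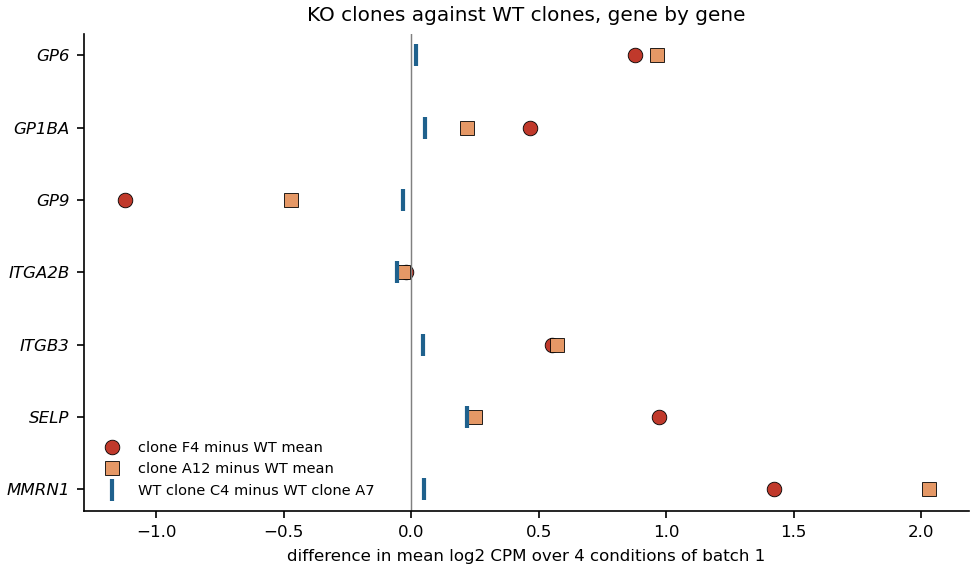
Log2 difference of each gene between F4 and WT, A12 and WT, and the 2 WT clones (C4 minus A7), from batch 1 means that include the WT pre-treatment libraries, whose clone labels are in doubt and bear on C4 minus A7. GP6 and MMRN1 are above 0 in both KO clones, and MMRN1 is further above 0 in A12 (2.03) than in F4 (1.42).

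Erythroid markers were lower in KO by median, at -0.95 before treatment, -1.23 with DMSO (264 h), -0.47 with Aza (72 h) and -1.07 with Aza (264 h) on the log2 scale, with 1, 1, 3 and 2 of 20 called lower and none higher in edgeR. Lymphoid markers had 0 called in each, with medians of -0.07, -0.12, -0.36 and 0.65. Their summed level was 17.2 to 45.9 CPM in KO against 8.02 to 12.7 in WT before treatment. In DMSO at 264 h it was 24.6 to 73.7 CPM against 6.99 to 13.0. Mast cell, basophil and eosinophil markers had medians of 0.45, 0.96, 0.72 and 0.67, with 0, 1, 1 and 1 called higher and 0 lower. Granulocyte and monocyte, endothelial, and stromal and epithelial markers had 0 called in each. In DMSO at 72 h, where no test was made, the erythroid list summed to 2366 to 2968 CPM in KO and 4529 to 4543 in WT. The part of these markers in the higher GP6 and MMRN1 of KO cells was not tested.

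Levels around MMRN1 on chromosome 4 moved with the A12 value. The 17 expressed genes within 2 Mb of it had a median A12 minus F4 difference of 0.64 on the log2 scale, with 14 of 17 above 0, close to the 0.61 of MMRN1 itself. Against WT these neighbours had a median of 0.64 in A12 but 0.10 in F4, while MMRN1 stood 2.03 and 1.42 above WT. The 13161 expressed genes of other chromosomes had a median of -0.01 for A12 minus F4. MMRN1 was thus above the median of its neighbours in both KO clones. DNA copy number was not analysed here; the part of the neighbourhood in the A12 value was not tested.

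**Figure D4:**
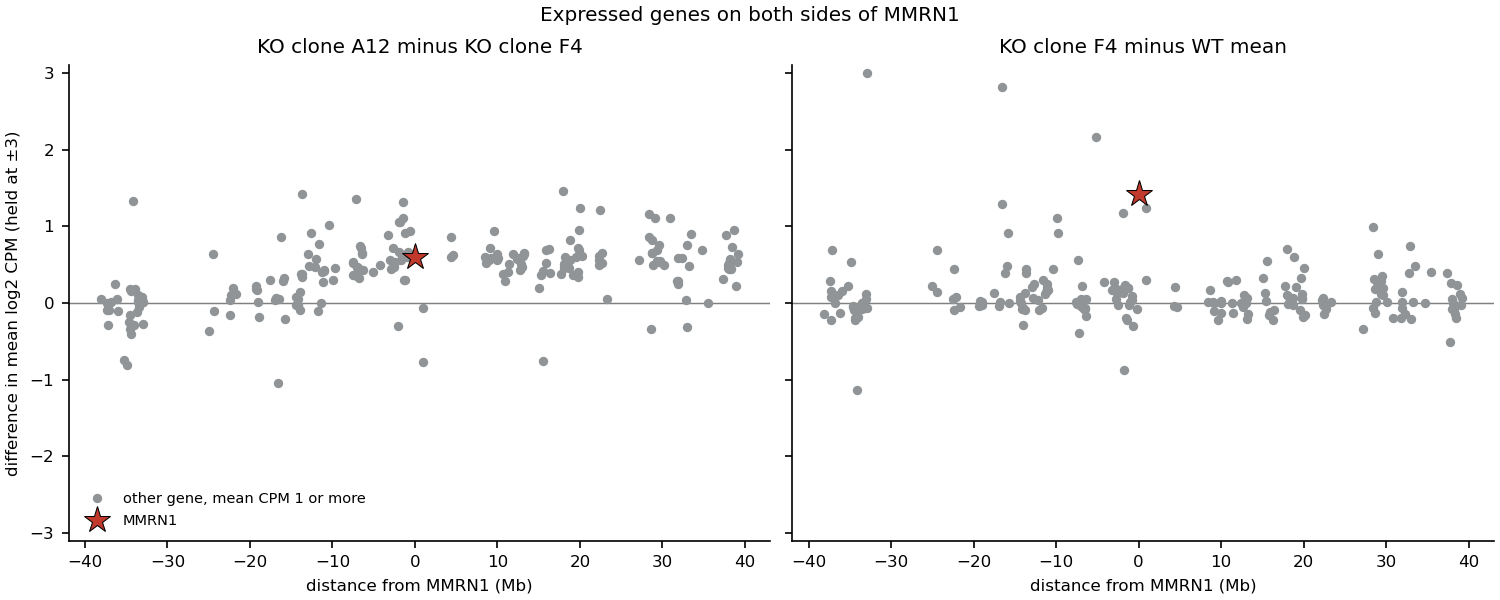
Log2 differences A12 minus F4 and F4 minus WT for genes with a mean of at least 1 CPM, by distance from MMRN1 in Mb. Genes near MMRN1 lie above 0 for A12 minus F4 (median 0.64 within 2 Mb) and close to 0 for F4 minus WT (median 0.10), where MMRN1 is at 1.42.

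Time in culture was followed as DMSO at 264 h against pre-treatment. ITGA2B fell in KO by 0.34 ± 0.055 on the log2 scale (edgeR adjusted p = 0.00141) and in WT by 0.28 (edgeR adjusted p = 0.00577), from 594 and 609 to between 486 and 557 CPM in KO and from 641 and 612 to 516 and 509 CPM in WT. MMRN1 rose in KO by 0.56 ± 0.13 (edgeR adjusted p = 0.0216) and in WT by 0.58 (edgeR adjusted p = 0.0424), and GP1BA fell in WT by 0.34 (edgeR adjusted p = 0.0218). In KO, MMRN1 went from 16.6 to 25.9 (F4) and from 27.6 to 40.7 CPM (A12) in batch 1, but only from 19.6 to 20.0 and from 27.7 to 28.8 CPM in the batch 2 DMSO libraries of the start and 264 h. Of all genes, 3.93% were called in KO and 4.92% in WT. The MMRN1 call in KO was lost in 4 of the refits that left out 1 library, and in WT it was lost without either 264 h library (edgeR adjusted p = 0.436 and 0.0684) and without the A7 pre-treatment library, where the change was 0.18 (edgeR adjusted p = 0.534). In WT, the GP1BA call was lost without either 264 h library or the C4 pre-treatment library, where the change was -0.19 (edgeR adjusted p = 0.212), and the ITGA2B call was lost without the A7 library of 264 h (-0.27, edgeR adjusted p = 0.138). The WT values rest on the 2 pre-treatment libraries whose clone labels run against the later ones.

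PF4 was found in quantity in 1 library. KO clone A12 in DMSO at 264 h, batch 2, held 30 of the 36 PF4 counts, at 0.846 CPM, where the highest of the other 24 libraries had 0.0644. Ranked over all 57773 genes by how far the library stood above the highest other library, PPBP, which encodes another α-granule chemokine, came first (163 counts, 4.59 CPM against 0.676) and PF4 came next. GNG11, with 12 counts, and S100A8, with 8, followed; these 3 genes were named after their values were seen. The receptors stayed within the range of the other libraries: ITGA2B had 557 CPM and GP1BA 63.5 in that library, against up to 661 and 79.3 elsewhere. GP9 had 4 counts. Within KO in DMSO at 264 h, the library was highest for ITGA2B (485.7 to 519 CPM in the others) and GP6 (62.5 against 53.2 to 61.4). There GP1BA and ITGB3 lay between the other libraries, and GP9 and SELP were lowest. Whether the receptors rose with PF4 was not tested.

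The rest of the platelet and megakaryocyte programme was read from 6 gene lists that do not hold the 9 genes. Of 23 transcription factors of the lineage, 10 rose and 2 fell in KO at 72 h and 11 rose and 3 fell in WT, with a median of 0.22 and 0.21 on the log2 scale. GFI1B, a repressor needed for megakaryocyte and erythroid maturation, went from 35.1 to 72.5 CPM in KO and from 26.4 to 58.0 CPM in WT (log2 1.39 and 1.15, edgeR adjusted p = 5.66e-07 and 3.71e-06). The CPM given for list genes are plain group means, while the log2 changes are adjusted for clone and batch. The 2 can differ in KO, whose DMSO mean holds libraries of both batches. NFE2, which drives platelet release, went from 96.5 to 185 CPM in WT (log2 0.96, edgeR adjusted p = 8.90e-10). In KO its mean went from 120 to 201 CPM. KLF1, an erythroid factor that is also in the erythroid marker list, rose in KO by 1.30 (edgeR adjusted p = 1.37e-04). Its WT mean went from 108 to 197 CPM.

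Agonist receptor genes, through which thrombin, ADP and thromboxane act on platelets, were mostly called higher. Of 10 tested agonist receptor genes, 6 rose and 1 fell in each genotype, with a median of 0.42 in KO and 0.50 in WT. F2RL2 (PAR3), a thrombin-receptor family member, rose by 2.40 in KO (edgeR adjusted p = 2.89e-04) and 2.07 in WT (edgeR adjusted p = 0.00145), from under 1 CPM in both.

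Among the signalling genes downstream of GP6 and the integrin, more were called lower than higher. Of 18, 3 rose and 7 fell in KO (median -0.22) and 4 rose and 8 fell in WT (median -0.11). BTK, a kinase of the GP6 pathway, rose in KO from 190 to 312 CPM (log2 0.75, edgeR adjusted p = 1.39e-08). In WT its mean went from 202 to 308 CPM. FYN, a Src-family kinase that acts at GP6, rose by 0.77 in KO (edgeR adjusted p = 0.0178) and by 1.16 in WT (edgeR adjusted p = 0.015). So the receptor gene GP6 rose while most called genes of its signalling list fell.

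The adhesion, granule and proplatelet lists were mixed. Of 16 adhesion receptor genes, 6 rose in KO and none fell, while 4 rose and 2 fell in WT. CD9 rose in KO by 2.09 from a low level (edgeR adjusted p = 0.0094), and its WT mean went from 0.937 to 1.69 CPM. GP5, a further GPIb-IX-V subunit, fell in WT by 0.86 (edgeR adjusted p = 0.0123), and its KO mean went from 3.24 to 2.25 CPM. Of 24 granule genes, 8 rose and 1 fell in KO and 5 rose and 2 fell in WT. Of 22 genes of proplatelet formation and eicosanoid synthesis, 8 rose and 3 fell in KO and 7 rose and 3 fell in WT; TBXAS1, thromboxane synthase, fell by 1.04 in KO and 0.94 in WT (edgeR adjusted p = 8.92e-04 and 7.94e-04). PLEK, pleckstrin, a substrate of protein kinase C in platelets, went from 27.7 to 69.3 CPM in KO (log2 1.29, edgeR adjusted p = 0.00236). Its WT mean went from 24.6 to 46.0 CPM. At 264 h, GATA1 (log2 0.37, edgeR adjusted p = 0.0288) and TPM1 (log2 0.37, edgeR adjusted p = 0.0428) were higher after Aza in WT. In KO, TPM1 had a mean of 35.3 CPM in DMSO and 43.3 after Aza, and GATA1 had 101 and 99.8. These counts at 72 h are to be read against the 20.1% and 18.3% of all genes called.

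Markers of other blood cell types moved at 72 h as well. Erythroid markers had 12 of 20 tested genes higher and 1 lower in KO, with summed levels of 4300 to 4567 CPM after Aza against 2366 to 2968 in DMSO, and 8 higher and 1 lower in WT, at 6164 to 6303 against 4529 to 4543 CPM, with none of the 20 at 0. Mast cell, basophil and eosinophil markers had 9 higher and 2 lower of 17 in KO and 5 and 1 in WT, at 231 to 270 against 187 to 213 CPM in KO and 119 to 134 against 115 to 134 in WT, and CMA1 and RNASE2 were at 0 in WT after Aza. Granulocyte and monocyte markers had 4 higher and 1 lower of 10 in KO and 3 and 1 in WT; their summed level was 95.9 to 108 CPM after Aza against 112 to 120 in KO and 88.9 to 95.5 against 115 to 119 in WT, with FCN1 at 0 in all 4 groups. Endothelial markers had 5 higher and 3 lower of 14 in KO and 6 and 3 in WT, stromal and epithelial markers 2 higher of 5 in KO and 3 in WT, and lymphoid markers none of 6 in KO and 1 in WT. At 264 h, when none of the 9 genes was called, erythroid markers were still higher for 3 genes in KO and 7 in WT and mast cell, basophil and eosinophil markers for 4 in KO and 3 in WT. The part of these cell-type markers in the rise of GP6, ITGB3 and SELP was not tested.

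**Figure D5:**
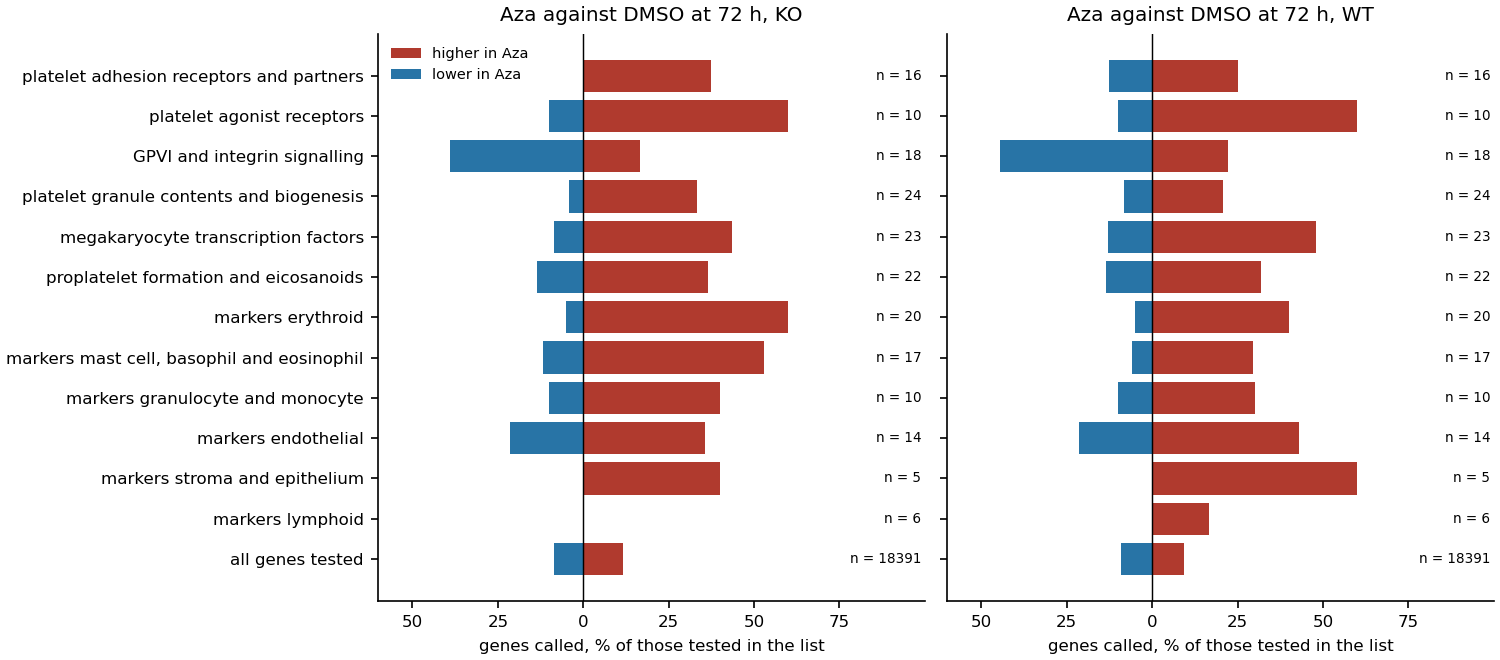
Share of tested genes called higher or lower after Aza at 72 h (horizontal bars from 0, in percent) in each gene list, in KO and WT, with all genes tested for comparison (20.1% called in KO and 18.3% in WT). The transcription factor and erythroid lists have more genes higher than lower, and the signalling list has more lower than higher.

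Finally, each gene above 1 CPM was matched with the genes whose log2 CPM followed it most closely over the 25 libraries, which share clones, batches and treatments. GP6 was most like SLAMF7 (Pearson r = 0.95), TGM5 (0.94) and AUNIP (0.94), and GP1BA was most like LOXL1 (0.94), SCARF1 (0.94) and RDH13 (0.94). ITGA2B was most like PCED1A (0.86), ABCA2 (0.84) and FUT1 (0.82), and ITGB3 was most like GBP4 (0.92), SHC1 (0.90) and CDH24 (0.89). SELP was most like FAM8A1 (0.87), IFIT2 (0.86) and LRRC57 (0.83), and MMRN1 was most like SERTM2 (0.96), CD3D (0.96) and FYN (0.95). Among the 9 genes, GP6 followed MMRN1 (r = 0.81) and ITGB3 (0.78), while ITGA2B followed its partner ITGB3 weakly (0.30) and MMRN1 not at all (-0.09). These values describe the libraries and carry no test.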

How the data were processed

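Poly(A) RNA libraries (TruSeq stranded mRNA, per the labels' protocols) were read as the authors' deposited table of raw counts per gene, made with featureCounts 1.6.2 on exons of GENCODE release 19 (hg19), per the file headers, in which no strand option is recorded. The submitters' processing notes also name cutadapt, FastQC, STAR 2.6.1d and DESeq2. Counts were used as deposited, without pooling, in edgeR 4.0.16 (R 4.3.3): TMM library sizes, filterByExpr, robust quasi-likelihood tests and Benjamini-Hochberg adjustment over all genes tested, called at an adjusted p under 0.05. CPM used TMM library sizes, and log2 CPM a prior count of 2. KO and WT were compared on 2 against 2 batch 1 libraries with 2 residual degrees of freedom. The other 10 comparisons came from 1 model of 25 libraries and 18391 genes with clone and batch terms and 11 residual degrees of freedom.

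Clones, named in the labels, pair the libraries. Same-clone deviations in batch 1 correlated at 0.55 to 0.61 in KO and 0.45 to 0.52 in WT after treatment, but at -0.52 to -0.48 between WT pre-treatment and later libraries.

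The members and gene lists were chosen with earlier results of these data known. All 9 members were named, with up to 2 called genes of the largest change from each list in each of the 4 Aza comparisons (some are not reported here), and the 3 genes most correlated with each member of at least 1 CPM. Symbols were found for 51996 identifiers. The scripts were tested on simulated data. Alternatives were DESeq2 1.42.0, its size factors, limma 3.58.1 voom, no filter, no clone term, batch 1 only, only the groups compared, WT pre-treatment libraries left out or exchanged, the failed library added, and each library left out in turn.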

Additional observations from a re-analysis of the deposited data

Results flagged for a closer look

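PF4 in KO cells in DMSO at 264 h was far from the others in 1 library: clone A12 of batch 2 had 0.846 CPM (30 counts), and the other 3 libraries of that group were near 0. GP9 in the same group was high in 1 library, clone F4 of batch 2, with 0.535 CPM (18 counts). Of 9 such checks, each on 4 libraries, these 2 passed the limit. For like, normally distributed values chance passes it in about 1 of 20. These libraries come from different clones and batches, and both genes had few counts, so the rate here is not known.

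The library that failed quality control (clone F4, KO, DMSO, 72 h, batch 1) entered no main comparison and was added only as an alternative. It held GP6 at 59.9 CPM, GP9 at 0.308 CPM (8 counts) and SELP at 1.93 CPM (50 counts), each above all passing KO libraries in DMSO at 72 h. Its MMRN1 (13.5 CPM) and ITGB3 (4.55 CPM) were below all of them.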

How the results depend on the processing

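Across 1079 recomputed values of single genes, 992 kept their side of the threshold with no called value changing sign, 45 lost a call and 42 gained one; 42 values that were not called changed direction. The counts of called genes among the 9 moved as follows, and the cause was not tested. With DESeq2, the count in WT at 72 h (Aza against DMSO) was 3 in place of 5, and the KO against WT counts were 2 before treatment, 3 for DMSO (264 h), 3 for Aza (72 h) and 2 for Aza (264 h), in place of 0, 1, 1 and 1. Without a filter on low counts these 4 counts were 2, 4, 4 and 4, and with limma voom 2 in each; without a filter the WT count for Aza at 264 h was 1 in place of 0, as it was without the WT pre-treatment libraries and with only the groups compared. With only the groups compared, DMSO at 264 h against pre-treatment in WT gave 0 in place of 3, and with batch 1 only it gave 1 in place of 2 in KO. Without the replicate block (no clone term), the counts were 3 in place of 5 for Aza in WT at 72 h, and 1 in place of 2 (KO) and 0 in place of 3 (WT) for DMSO at 264 h against pre-treatment; pairing by clone changed no other of these counts by over 1.5 times. Leaving out 1 library in turn gave counts of 2 to 4 for Aza at 72 h in WT and in KO, 1 to 2 (KO) and 0 to 2 (WT) for DMSO at 264 h against pre-treatment, and 0 to 2, 0 to 2, 0 to 2 and 0 to 3 for KO against WT in the order above. Per kilobase, 7 of 9 genes kept their place in the order of levels. Depth limits PF4, VWF and GP9, which had few counts.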

Other observations

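Windows of 10 Mb along chromosome 4 gave a median A12 minus F4 log2 difference between -0.08 and 0.07 from 0 to 70 Mb, 0.25 from 70 to 80 Mb, where PF4 lies, 0.53 from 80 to 90 Mb, 0.62 from 90 to 100 Mb, where MMRN1 lies, 0.44 to 0.64 from 100 to 190 Mb, and 0.38 for the 1 gene beyond. In the 80 to 90 Mb window, 97.4% of 38 expressed genes were higher in A12, with a median of 0.59 in batch 2.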
